A study of Mus musculus with 6 samples.

Results

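The 10 genes described here act in autophagy and mitophagy, and they were followed across the libraries of a study of serum exosomes in muscle cell differentiation. They are Sqstm1, Map1lc3a, Map1lc3b, Gabarapl1, Wipi1, Ulk1, Uvrag, Bnip3, Bnip3l and Becn1, and they were found by symbol among the 20950 entries of the deposited expression table. All 10 were listed, and all 10 were among the 10731 expressed genes, meaning those that averaged 1 FPKM or more over the 6 libraries. FPKM counts fragments per kilobase of transcript, scaled to the number of mapped reads. The cells were C2C12, a mouse myoblast line from skeletal muscle that fuses into myotubes when serum is lowered. They were grown in DMEM with 10% FBS (fetal bovine serum) or differentiated in 2% HS (horse serum) or 0.2% FBS, in each case without and with exosomes isolated from FBS, in the amount that 10% FBS contains. The 10% FBS, 2% HS, 2% HS + exosome and 0.2% FBS conditions had 1 library each, and 0.2% FBS + exosome had 2, called replicates 1 and 2 here. All cells were of the same line, and the labels set the groups apart by growth or differentiation, serum and exosomes. The labels do not say whether replicates 1 and 2 came from separate cultures or exosome preparations, so their spread, and every p-value that rests on it, may be technical.

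Autophagy encloses cytoplasm in a double membrane and delivers it to lysosomes. The kinase ULK1 starts the process, a lipid kinase complex built around BECN1 marks the membrane, and proteins of the ATG8 family (the LC3 and GABARAP proteins) are attached to its lipid and hold cargo receptors such as SQSTM1, also called p62. BNIP3 and BNIP3L sit in the outer membrane of mitochondria and bind ATG8 proteins, which brings mitochondria into the pathway (mitophagy). In muscle, autophagy is known from fasting and atrophy, in which FOXO transcription factors raise several of these genes, and from the renewal of mitochondria while myoblasts become myotubes.

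Promoter sequence was taken from RefSeq (GRCm38.p6, the assembly of mm10) for 7 of the 10 genes, and Map1lc3a, Bnip3l and Becn1 had no match. The stretch from 250 bases before to 50 after the start was searched on both strands for 6 short motifs. The 4 windows of 30 bases that follow lie ahead of the start and are shown because each holds a motif of a regulator known for this pathway, for low oxygen or for muscle. Capitals mark the motif, and each window is written 5′ to 3′ on the strand of its gene.
Gabarapl1 (chr6:129533086-129533115, plus strand): aagatacacaaaTAAACAaagcttctgtcc
Bnip3 (chr7:138909597-138909626, minus strand): gcgcacgcgccgCACGTGccacacgctccc
Uvrag (chr7:99141194-99141223, minus strand): actggccaatagCACGTcccttggccgcca
Map1lc3b (chr8:121590188-121590217, plus strand): CAGCTGgatcatgcaaggactgaaggggaa
The Gabarapl1 window holds TAAACA, the core that FOXO factors read, which occurred in 13.4% of all 32851 promoters of this length. CACGTG, the E-box of TFEB, TFE3 and MITF, occurred in Bnip3 and in 7.15% of all promoters. The core of the hypoxia response element, ACGTG, was found in Uvrag on the opposite strand and in Bnip3 inside its CACGTG, and in 19.6% of all promoters. CAGCTG, an E-box of the myogenic factors, was found in Map1lc3b and, after the start, in Sqstm1, against 16.3% of all promoters. The antioxidant response core TGACNNNGC was found after the start of Map1lc3b, against 12.4%, and the amino acid response core TGATGNAA in 0 of the 7, against 3.97%. A match describes letters in this window and not a bound site.

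The table holds no counts. The spacing between low values in 2442 single-transcript genes gave estimated depths of 33700000 to 39400000 reads, so that Uvrag, which had the lowest mean of the 10 genes, rested on about 227 to 440 reads per kilobase. The muscle markers Myod1, Myf5, Des, Cdh15 and Myog were all expressed, while 6 markers of other cells or blood (Ptprc, Pecam1, Epcam, Cdh5, Alb and Hbb-bs) stayed at or below 0.114 FPKM. All 5 markers of myotube maturation (Myh1, Myh3, Ckm, Acta1 and Mymk, the last listed as Tmem8c) were lower in both exosome libraries of 0.2% FBS, as were 27.5% of all expressed genes (41.5% after scaling), and their summed level was 8731 FPKM in 0.2% FBS against 3938 and 2638 FPKM with exosomes. In 2% HS the sum was 7944 FPKM, and 7434 FPKM with exosomes, and in growing cells it was 3489 FPKM. Their part in the results on the autophagy genes was not tested. Over the 10731 genes, the median difference of log2(FPKM + 1) between exosome libraries and control in 0.2% FBS was 0.14. This shift became −0.00076 once the libraries were scaled to share a 75th percentile of values above 0. Differences in this medium are therefore also given after scaling.

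With exosomes in 0.2% FBS, transcripts of the cargo receptor Sqstm1 and of the ATG8 genes Map1lc3b and Gabarapl1 stood at their highest levels of the series, whereas those of Map1lc3a, Becn1 and Bnip3 differed little from the control. The differences of log2(FPKM + 1) from the 0.2% FBS library ran from −0.20 for Wipi1 to 0.96 for Gabarapl1, as means of both replicates. Their median was 0.35 (0.23 in replicate 1 and 0.44 in replicate 2), against 0.14 for all expressed genes, and it was 0.20 after scaling. In 7 of the 10 genes both exosome libraries lay above the control, as they did in 55.2% of all expressed genes, and Wipi1 alone lay below in both, against 27.5%. After scaling, 6 lay above, without Becn1, against 40.9% of genes, and 4 lay below (Map1lc3a, Wipi1, Bnip3 and Becn1), against 41.5%. In 5 genes (Sqstm1, Map1lc3b, Gabarapl1, Ulk1 and Uvrag) both exosome libraries lay above all 4 other libraries, against 27.8% of all expressed genes, and after scaling in 4, without Ulk1, against 16.4%. None of the 10 passed the limit used in the study, a log2 change above 1 or below −1, in the mean of both replicates. Of all entries, 0.931% (195) were above 1 and 1.16% (244) below −1, and after scaling 108 were above and 319 below. In bulk RNA, fewer cells of a type and less RNA per cell cannot be told apart.

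**Figure D1:**
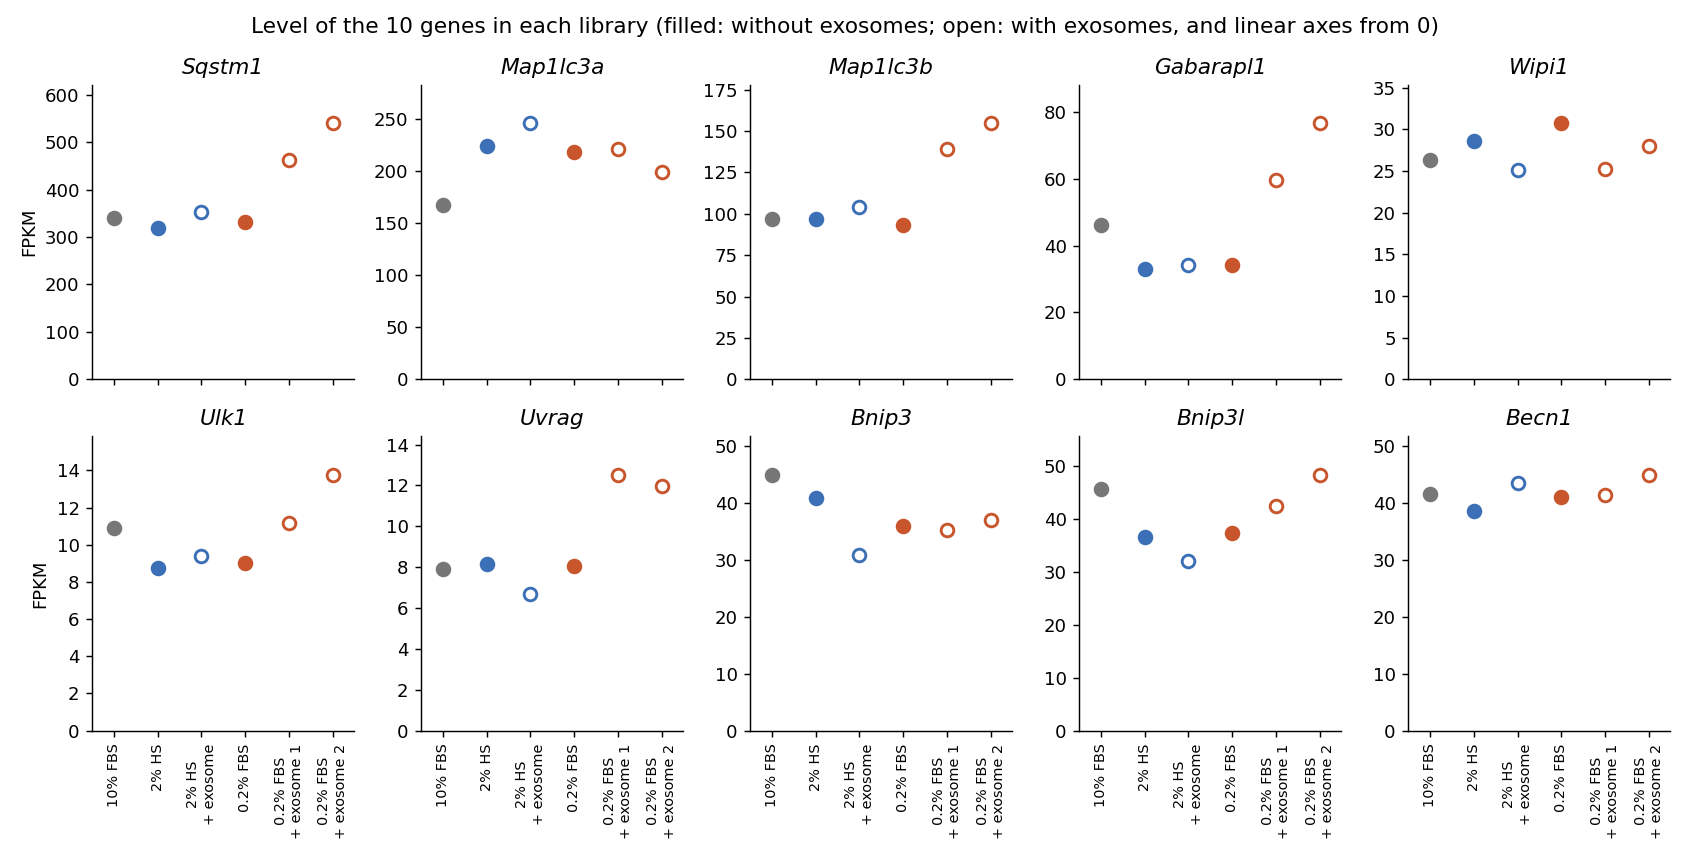
Level of each of the 10 genes in FPKM (vertical axes, linear and starting at 0) in the 6 libraries (horizontal axes), with 1 point per library, filled without and open with exosomes. Both open orange points of 0.2% FBS + exosome lie above every other library for Sqstm1, Map1lc3b, Gabarapl1, Ulk1 and Uvrag, as they do in 27.8% of expressed genes, whereas for the other 5 genes at least 1 of them falls among the other libraries.

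Among the ATG8 genes, Gabarapl1 encodes a GABARAP protein that acts in the growth and closure of the autophagosome, and it is a known FOXO target in muscle (chr6:129533160-129542346, plus strand). It was at 46.3 FPKM in 10% FBS, 33.0 in 2% HS, 34.2 in 2% HS + exosome, 34.4 in 0.2% FBS, and 59.5 and 76.6 in replicates 1 and 2 of 0.2% FBS + exosome. Both exosome libraries of 0.2% FBS were higher than all other libraries, growing cells came next, and the remaining 3 libraries did not differ beyond the gap of 0.36 (log2) between the replicates. The difference from 0.2% FBS was 0.78 and 1.13 in replicates 1 and 2 (mean 0.96, SD 0.25, n = 2), or 1.73 and 2.23 times the control level, and 0.80 after scaling. Replicate 2 alone passed the limit of 1. A limma fit with 1 mean per condition, which takes its spread from the replicates and assumes that the single libraries vary as much, gave an SE of 0.20, a 95% interval from 0.50 to 1.41 and an adjusted p = 0.0231. Gabarapl1 was thus past the threshold under that assumption, which the 1 control library cannot check. Across the alternative settings the adjusted p for Gabarapl1 ranged from 0.02 to 0.263, and the call was lost when genes with low values were kept in the fit.

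Map1lc3b encodes LC3B, the ATG8 protein most used to mark autophagosomes (chr8:121590361-121598760, plus strand). Its level was 97.0 FPKM in 10% FBS, 96.6 in 2% HS, 104 in 2% HS + exosome, 93.2 in 0.2% FBS, and 139 and 155 in replicates 1 and 2 of 0.2% FBS + exosome. The first 4 of these lay close together, each within the replicate gap of 0.15 of its neighbour in the order, and both replicates lay above them. The difference from 0.2% FBS was 0.57 and 0.72 (mean 0.65, SD 0.11, n = 2), and 0.49 after scaling. In the same limma fit it had an SE of 0.20 and an adjusted p = 0.0705, so it did not pass. Of the 5254 stretches of 75 bases in its transcripts, 5.08% also occur in 3 other annotated genes (Gm12727, Gm6054 and Gm6055), and reads from these cannot be told from its own.

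Map1lc3a encodes LC3A, the close relative of LC3B (chr2:155276297-155278073, plus strand), and its pattern was a different one. It was lowest in growing cells, at 167 FPKM, and stood at 224 in 2% HS, 245 in 2% HS + exosome, 218 in 0.2% FBS, and 221 and 199 in replicates 1 and 2 of 0.2% FBS + exosome. The differentiating libraries were thus all above the growing one, and only the step down to 10% FBS exceeded the replicate gap of 0.15. With exosomes in 0.2% FBS it differed from the control by 0.02 and −0.14 in replicates 1 and 2 (mean −0.06, SD 0.11, n = 2), and by −0.22 after scaling. The limma fit gave an SE of 0.24 and an adjusted p = 0.896.

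Sqstm1 encodes p62, which binds ubiquitin and ATG8 proteins and is itself degraded with its cargo (chr11:50199366-50210827, minus strand). It was the most abundant of the 10 transcripts in every library, with 340 FPKM in 10% FBS, 320 in 2% HS, 353 in 2% HS + exosome, 332 in 0.2% FBS, and 462 and 540 in replicates 1 and 2 of 0.2% FBS + exosome. All libraries other than the last pair lay within the replicate gap of 0.22 of their neighbours in the order. The difference from 0.2% FBS was 0.48 and 0.70 (mean 0.59, SD 0.16, n = 2), larger than that of 88.8% of expressed genes, and 0.43 after scaling. It did not pass the limma fit (SE 0.29, adjusted p = 0.203).

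**Figure D2:**
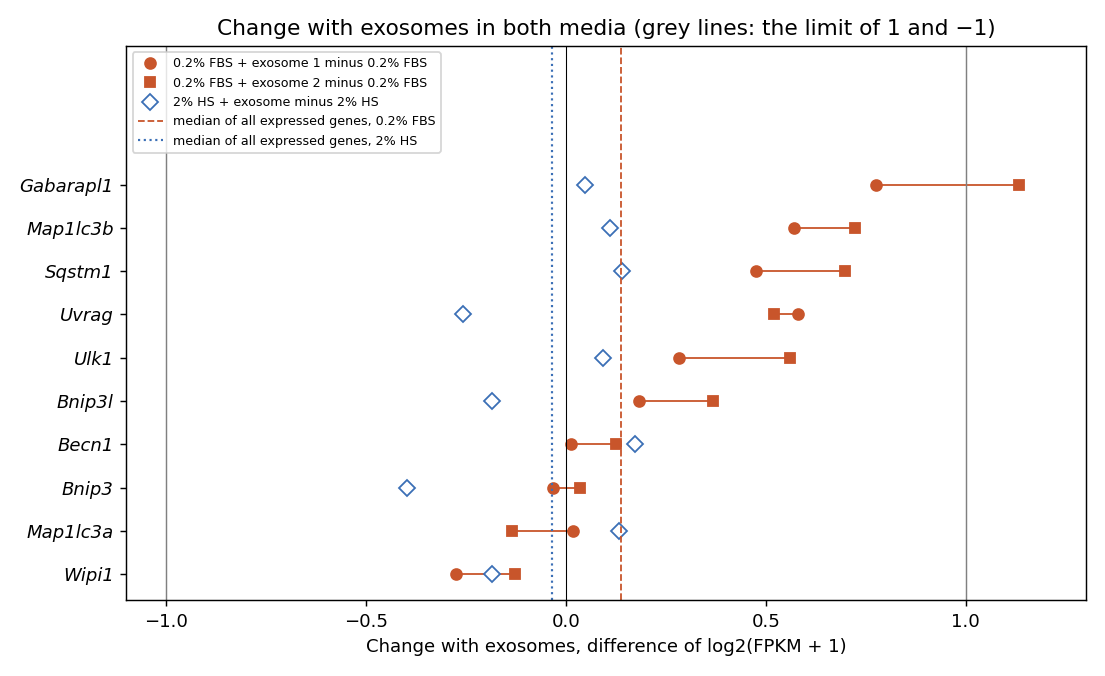
Difference of log2(FPKM + 1) between libraries with and without exosomes (horizontal axis) for each gene (vertical axis), with filled circles and squares for replicates 1 and 2 in 0.2% FBS, open diamonds for the single pair of libraries in 2% HS, and dashed and dotted lines for the median of all expressed genes in each medium (0.14 and −0.04). Gabarapl1, Map1lc3b, Sqstm1, Uvrag, Ulk1 and Bnip3l lie right of the dashed line in both replicates, and their diamonds lie between −0.26 and 0.14.

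Of the genes that start the autophagosome, Ulk1 encodes the initiating kinase (chr5:110784488-110810097, minus strand). It was at 10.9 FPKM in 10% FBS, 8.73 in 2% HS, 9.38 in 2% HS + exosome, 9.02 in 0.2% FBS, and 11.2 and 13.8 in replicates 1 and 2 of 0.2% FBS + exosome. The replicates were the highest libraries, but every neighbouring pair in the order of conditions lay within their gap of 0.28. The difference from 0.2% FBS was 0.28 and 0.56 (mean 0.42, SD 0.20, n = 2; 0.28 after scaling), and the limma fit gave an SE of 0.18 and an adjusted p = 0.146.

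Uvrag encodes a partner of BECN1 in the lipid kinase complex that also serves endosome traffic (chr7:98885021-99141141, minus strand). It was at 7.90 FPKM in 10% FBS, 8.18 in 2% HS, 6.68 in 2% HS + exosome, 8.05 in 0.2% FBS, and 12.5 and 11.97 in replicates 1 and 2 of 0.2% FBS + exosome. It was highest with exosomes in 0.2% FBS and lowest with exosomes in 2% HS, while the 3 libraries without exosomes did not differ beyond the replicate gap of 0.06. The difference from 0.2% FBS was 0.58 and 0.52 (mean 0.55, SD 0.04, n = 2), and 0.41 after scaling. Uvrag had the smallest SD of the 5 genes that stood highest above the control, and it came close to the threshold of 0.05 in the limma fit without passing it (SE 0.16, adjusted p = 0.0562). Across the alternative settings of this fit its adjusted p ranged from 0.0525 to 0.243, and it was 0.122 after scaling.

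Becn1, the core of that complex (chr11:101285952-101302286, minus strand), varied least of the 10 genes. Its levels were 41.5 FPKM in 10% FBS, 38.6 in 2% HS, 43.6 in 2% HS + exosome, 41.1 in 0.2% FBS, and 41.5 and 45.0 in replicates 1 and 2 of 0.2% FBS + exosome, a span of 0.22 on the log2 scale. With exosomes in 0.2% FBS it was higher by 0.07 (SD 0.08, n = 2) as deposited and lower after scaling, at −0.08, and the limma adjusted p was 0.82. Wipi1, which binds the marked lipid and helps the membrane grow (chr11:109573331-109611967, minus strand), was at 26.3 FPKM in 10% FBS, 28.6 in 2% HS, 25.1 in 2% HS + exosome, 30.7 in 0.2% FBS, and 25.2 and 28.0 in replicates 1 and 2 of 0.2% FBS + exosome. Both exosome replicates were below the control, with log2 differences of −0.28 and −0.13 (mean −0.20, SD 0.11, n = 2; −0.35 after scaling), and the adjusted p was 0.444. For Becn1 and Wipi1 alike, every neighbouring pair in the order of conditions lay within the replicate gap.

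The mitophagy receptors came to different orders. Bnip3, a known target of the hypoxia factor HIF-1 and of FOXO3 in muscle (chr7:138890836-138909519, minus strand), was at 45.0 FPKM in 10% FBS, 40.9 in 2% HS, 30.8 in 2% HS + exosome, 36.0 in 0.2% FBS, and 35.2 and 36.9 in replicates 1 and 2 of 0.2% FBS + exosome. Growing cells were highest and 2% HS + exosome lowest, and in 0.2% FBS the control fell between both exosome libraries. The difference there was −0.03 and 0.04 (SD 0.05, n = 2), with a limma SE of 0.16 and an adjusted p = 0.998, and it was −0.15 after scaling. Bnip3l, also called NIX and known from the clearing of mitochondria in red blood cell precursors (chr14:66985239-67008877, minus strand), was at 45.7 FPKM in 10% FBS, 36.6 in 2% HS, 32.1 in 2% HS + exosome, 37.3 in 0.2% FBS, and 42.4 and 48.4 in replicates 1 and 2 of 0.2% FBS + exosome. Growing cells and both of these replicates were higher than the other 3 libraries, which lay within the replicate gap of 0.19 of each other in order. The difference from 0.2% FBS was 0.18 and 0.37 (mean 0.28, SD 0.13, n = 2; 0.12 after scaling), and the adjusted p was 0.319. Of the stretches of 75 bases, 19.9% in Bnip3l also occur in Bnip3l-ps and 14.4% in Bnip3 in Gm16439, Gm6532 or Gm9419, so the levels of both are uncertain in that part.

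In the limma fit within 0.2% FBS, 12.5% of the 10731 genes passed an adjusted p of 0.05, 880 of them higher and 464 lower with exosomes, and of the 10 genes 1 passed (Gabarapl1). The unadjusted p was under 0.05 for 4 of them, Gabarapl1, Uvrag, Map1lc3b and Ulk1, and for 3379 of all genes. This fit has 1 residual degree of freedom, so its SEs lean on the trend over all genes. Its 1 control library gives no measure of how controls vary.

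In 2% HS, the other differentiation medium, each value is 1 library against 1, with no replicate check. None of the 10 genes passed the limit, against 0.344% (72) of all entries. The log2 differences with exosomes ran from −0.40 for Bnip3 to 0.17 for Becn1, with a median of 0.07 against −0.04 over all expressed genes. Bnip3 went from 40.9 FPKM to 30.8 FPKM, a difference lower than that of 95% of expressed genes. Uvrag followed at −0.26, Bnip3l at −0.19 and Wipi1 at −0.18, so that both mitophagy receptors were lower with exosomes in this medium. Of the 5 genes that stood highest in 0.2% FBS, Uvrag was thus below the control here, and the other 4 were at 0.14 for Sqstm1, 0.11 for Map1lc3b, 0.09 for Ulk1 and 0.05 for Gabarapl1. Map1lc3a was at 0.13.

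The difference between the exosome effects of the media was tested itself, as a contrast of the same limma fit, and 0 of the 10 genes passed, against 1.16% (125) of all genes. Gabarapl1 came out 0.91 higher in 0.2% FBS than in 2% HS (SE 0.30, 95% interval 0.21 to 1.604, adjusted p = 0.163), and Uvrag 0.81 higher (SE 0.24, 95% interval 0.25 to 1.36, adjusted p = 0.132). These were the only ones with an unadjusted p under 0.05, where 2091 of all genes had one. For the other 8 genes the differences ran from −0.19 for Map1lc3a to 0.54 for Map1lc3b, and all their intervals held 0. After scaling they ran from −0.39 for Map1lc3a to 0.34 for Map1lc3b, with Sqstm1 at 0.25 in place of 0.45. Gabarapl1 was then at 0.72 and Uvrag at 0.63, and 0 of the 10 genes passed. A second limma model, which left out growing cells and gave both media the same exosome effect, called 0% of all genes, although 709 had an unadjusted p under 0.05, and its smallest adjusted p over all genes was 0.407. Among the 10 genes this common effect was largest for Gabarapl1 (0.57, SE 0.24, adjusted p = 0.705), Map1lc3b (0.42, SE 0.19, adjusted p = 0.705) and Sqstm1 (0.40, SE 0.21, adjusted p = 0.705). Of the 10, 0 had an unadjusted p under 0.05 in this model. The sample titles number the 2% HS pair 1, the 0.2% FBS library and replicate 1 of its exosome condition 2, and replicate 2 of it 3. If these numbers mark runs of the experiment, medium and run cannot be told apart.

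The step from growth to differentiation medium was small for most of the 10 genes, again with 1 library on each side. None passed the limit in 2% HS against 10% FBS, where 1.21% (254) of all entries did, nor in 0.2% FBS against 10% FBS, where 1.3% (272) did. The median difference was −0.10 in 2% HS and −0.05 in 0.2% FBS, against −0.08 and −0.09 over all expressed genes. After scaling it was −0.05 in 2% HS and 0.01 in 0.2% FBS, against −0.04 over all expressed genes in each. Map1lc3a was higher than in growing cells in both media, by 0.42 and 0.39, as was Wipi1, by 0.12 and 0.22. Gabarapl1 was lower in both, at −0.47 and −0.42. Ulk1 (−0.29 and −0.25), Bnip3l (−0.31 and −0.29) and Bnip3 (−0.13 and −0.31) were lower in both media too, while Sqstm1 (−0.09 and −0.04), Map1lc3b (−0.01 and −0.06), Uvrag (0.04 and 0.02) and Becn1 (−0.10 and −0.01) were close to growing cells. These comparisons share the 10% FBS library. Myog was already at 512 FPKM in it, against 564 in 2% HS and 663 in 0.2% FBS. The summed maturation markers were at 3489 FPKM in it, against 7944 in 2% HS and 8731 in 0.2% FBS.

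Set beside growing cells, 0.2% FBS + exosome was higher by 0.59 for Map1lc3b, 0.57 for Uvrag, 0.55 for Sqstm1 and 0.54 for Gabarapl1, as means of both replicates. After scaling these differences were 0.49, 0.48, 0.45 and 0.44 in that order. Gabarapl1 thus went from below to above the growing level, whereas Sqstm1, Map1lc3b and Uvrag started from about that level. Bnip3l came to the growing level (−0.01, and −0.11 after scaling), and Bnip3 was below it (−0.31, and −0.41 after scaling). None of the 10 passed the limit, against 0.31% (65) of all entries. The median was 0.25 (0.16 after scaling), against 0.04 (−0.05 after scaling) over all expressed genes.

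Because FPKM values are divided by length, levels of different genes can be set side by side within a library. The ratio of Map1lc3a to Map1lc3b was 1.72 in 10% FBS, 2.32 in 2% HS, 2.35 in 2% HS + exosome, 2.34 in 0.2% FBS, and 1.59 and 1.29 in replicates 1 and 2 of 0.2% FBS + exosome. The LC3A transcript was thus the more abundant one in all 6 libraries, and least so with exosomes in 0.2% FBS. The ratio of Gabarapl1 to Gabarapl2, another GABARAP gene, was 0.723, 0.461, 0.471, 0.532, 0.958 and 1.17 in the same order, and passed 1 only in replicate 2. The 5 ATG8 transcripts measured (with Gabarap and Gabarapl2) summed to 616 FPKM in growing cells, 617 in 0.2% FBS and 773 and 871 in the replicates with exosomes. The share of Map1lc3a in this sum was 27.1% in growing cells, 35.4% in 0.2% FBS and 28.6% and 22.8% with exosomes. That of Gabarapl1 was 7.52%, 5.57%, 7.70% and 8.79% in this order, and that of Gabarap 39.2%, 33.5%, 37.7% and 43.2%. The shares of Map1lc3b (15.8%, 15.1%, 18.0% and 17.7%) and Gabarapl2 (10.4%, 10.5%, 8.04% and 7.49%) in growing cells were close to those in 0.2% FBS.

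The ratio of Sqstm1 to Map1lc3b hardly varied, at 3.51, 3.31, 3.38, 3.56, 3.33 and 3.49 in that order of libraries. After the mean of each gene over the 6 libraries was subtracted, these genes differed by a root mean square of 0.0395 on the log2 scale, the smallest distance among the 45 pairs of the 10 genes, and Map1lc3b ranked 4 among 10725 genes by likeness to Sqstm1. The next pair was Ulk1 and Bnip3l at 0.112. Uvrag, although a partner of Becn1 in its complex, was at 0.302 and 0.266 of the Becn1 level with exosomes in 0.2% FBS, against 0.196 in the control and 0.153 in 2% HS + exosome. The ratio of Bnip3 to Bnip3l was 0.966 in 0.2% FBS and 0.829 and 0.763 with exosomes, against 0.985 in growing cells and 1.12 in 2% HS.

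**Figure D3:**
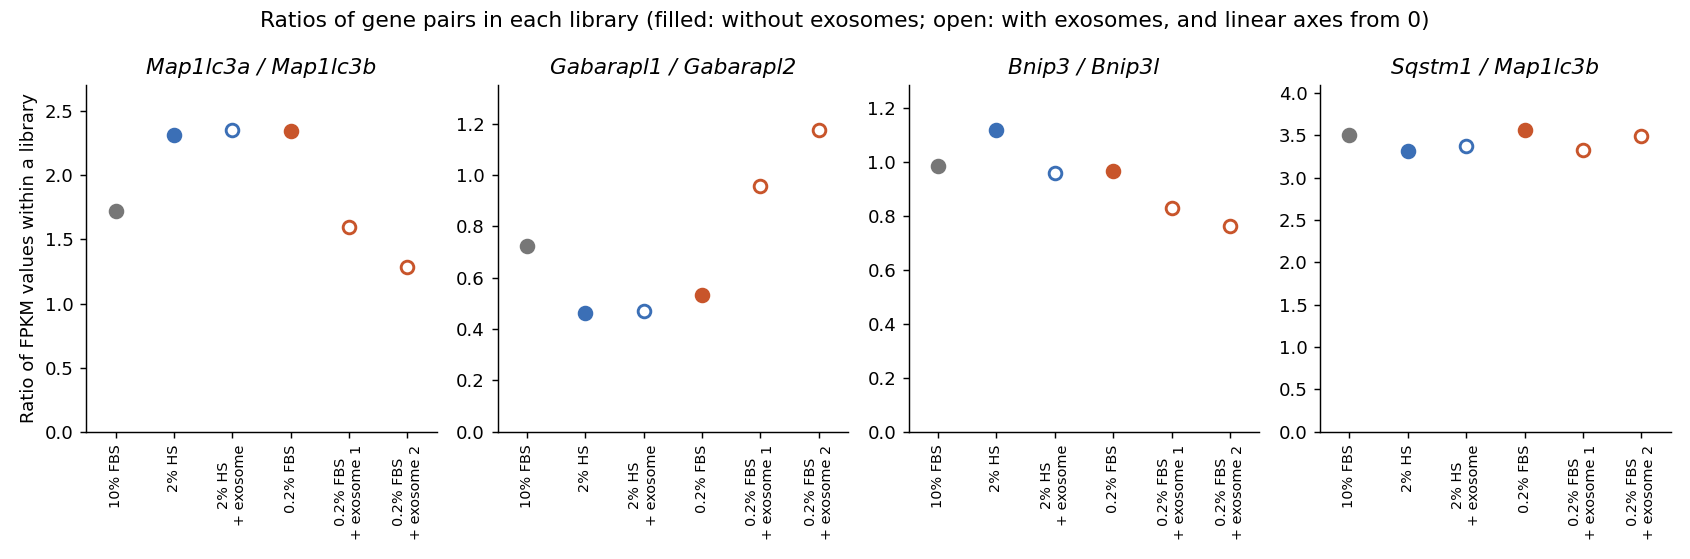
Ratio of the FPKM values of gene pairs within a library (vertical axes, linear and starting at 0) in the 6 libraries (horizontal axes), with filled points without and open points with exosomes. The ratio of Map1lc3a to Map1lc3b is lowest and that of Gabarapl1 to Gabarapl2 highest in the open orange points of 0.2% FBS + exosome, while that of Sqstm1 to Map1lc3b stays between 3.31 and 3.56.

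Gabarapl1 was the only one of the 10 to span at least 1 on the log2 scale over the 6 libraries (1.19). The genes whose pattern was most like it, by the same distance over the 6 libraries, were Slc27a1, a fatty acid transporter (0.0526), Plscr4, a phospholipid scramblase (0.0595), and Coro1b, an actin-binding protein (0.0618). Slc27a1, for example, was at 20.8 FPKM in 0.2% FBS and 36.4 and 44.0 FPKM with exosomes. The nearest of the other 9 genes was Sqstm1, at 0.209 and rank 725.

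Other genes of the pathway were taken from a list of 51, of which 50 were expressed (Park2 was not). Their median difference with exosomes in 0.2% FBS was 0.14, the same as over all expressed genes. It was 0.08 in replicate 1 and 0.22 in replicate 2, against 0.09 and 0.18 over all expressed genes, and 0.002 after scaling, and in 2% HS it was −0.01. Both exosome libraries of 0.2% FBS lay above the control for 35 of the 50 and below for 7, against 55.2% and 27.5% of all expressed genes. After scaling they lay above for 21 and below for 20, against 40.9% and 41.5%. None passed the limit in either medium. Of all entries, 0.931% were above 1 and 1.16% below −1 in 0.2% FBS, and 0.344% were past either in 2% HS. In the limma fit within 0.2% FBS, 1 of the 50 passed, against 12.5% of all expressed genes, and 11 had an unadjusted p under 0.05, against 3379 of 10731.

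By role, both exosome libraries were above the control for 6 of 6 other genes of the lipid kinase complex (2 after scaling), 4 of 6 that supply membrane (4 after scaling), 7 of 10 of the conjugation system (3), 5 of 6 of fusion with lysosomes (3) and 4 of 5 transcriptional regulators (2), beside the shares of 55.2% and, after scaling, 40.9% of all expressed genes. They were above for 2 of 4 other initiation genes (1 after scaling), 4 of 6 other cargo receptors (3), 2 of 5 other mitophagy genes (2) and 1 of the 2 other ATG8 genes (1). The highest of the list was Tfe3, a transcription factor of lysosome and autophagy genes, which was at 17.4 FPKM in 10% FBS, 10.6 in 2% HS, 10.2 in 2% HS + exosome, 11.9 in 0.2% FBS, and 18.9 and 23.8 in replicates 1 and 2 of 0.2% FBS + exosome. Like Gabarapl1, it was lower in each differentiation medium than in growing cells and highest with exosomes in 0.2% FBS. Its log2 difference with exosomes was 0.78 (0.63 after scaling, SE 0.18, limma adjusted p = 0.0306), and it was the gene of the list that passed, under the same assumption on its 1 control library. Over the alternative settings its adjusted p ranged from 0.0269 to 0.276, and it did not pass after scaling (0.0524), without the mean-variance trend (0.0519) and without the filter on low values.

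Next were Gabarap, the namesake of the GABARAP genes, at 207 FPKM in 0.2% FBS and 291 and 376 FPKM with exosomes (0.68, and 0.52 after scaling, adjusted p = 0.129), and Atg14, the BECN1 partner that directs the lipid kinase to autophagosomes, at 3.48 FPKM in 0.2% FBS and 6.06 and 5.63 FPKM with exosomes (0.61, and 0.48 after scaling, adjusted p = 0.0501). Gabarap and Atg14 were above their control in both libraries without passing limma, although Atg14 passed with a pseudocount of 0.1 (adjusted p = 0.0465, range over the settings 0.0465 to 0.25). The lowest of the list were Optn, a ubiquitin-binding receptor, Epg5, a tether for fusion with lysosomes, and Atg4a, a protease of ATG8 proteins. Optn was at 7.64 FPKM in 0.2% FBS and 4.56 and 5.39 FPKM with exosomes (−0.54, limma adjusted p = 0.0739, and after scaling −0.67, adjusted p = 0.0395). Epg5 was at −0.29 (adjusted p = 0.283) and Atg4a at −0.26 (adjusted p = 0.297), and after scaling at −0.42 (adjusted p = 0.128) and −0.40 (adjusted p = 0.123), in the same limma fit.

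**Figure D4:**
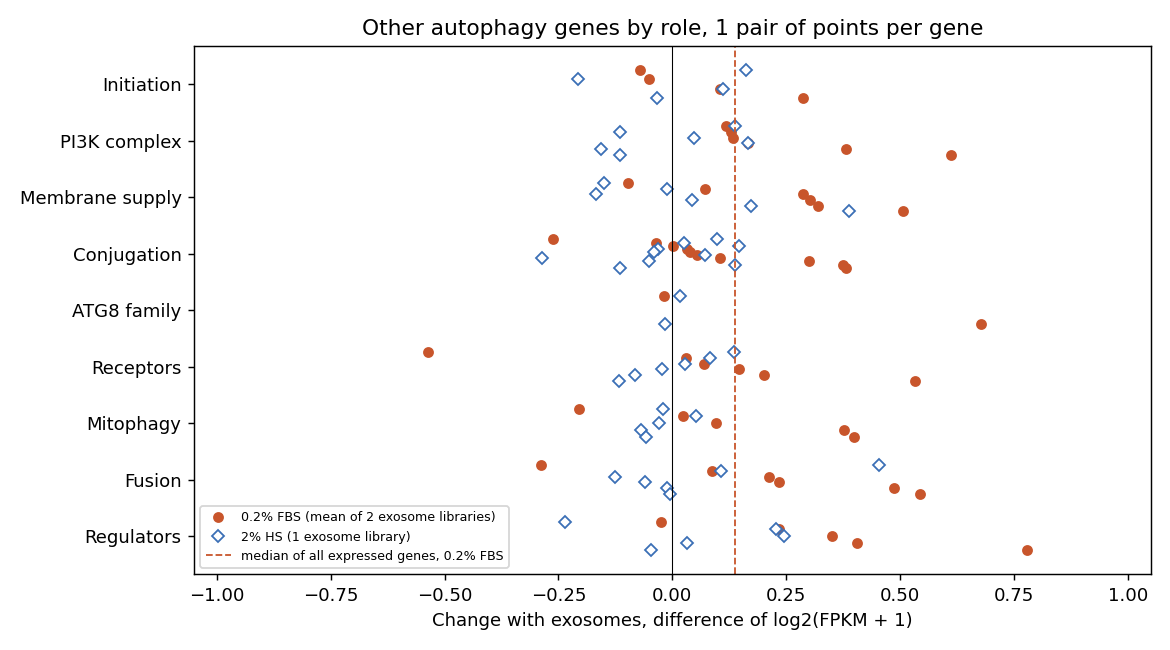
Mean difference of log2(FPKM + 1) with exosomes (horizontal axis) for the 50 other autophagy genes, grouped by role (vertical axis), with filled points for 0.2% FBS, open diamonds for 2% HS, and a dashed line for the median of all expressed genes in 0.2% FBS (0.14). Filled points lie on both sides of the dashed line, from −0.54 for Optn among the receptors to 0.78 for Tfe3 among the regulators. None passes 1 or −1, where 0.931% of all entries were above 1 and 1.16% below −1 in 0.2% FBS.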

How the data were processed

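Stranded mRNA libraries were read as 75-base single-end reads. RNA came from a Qiagen Micro kit (miRNeasy in the labels, RNeasy in the study's methods). The authors trimmed reads with cutadapt 1.9.1, mapped them to mm10 with TopHat2 2.1.0 (submitters' processing notes), computed FPKM with Cufflinks and deposited these FPKM values as 1 table. Annotation and strand setting are not given in the sources used here, and exons of 6 of the 10 genes overlap a gene on the opposite strand. Positions are from GENCODE vM21.

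Values were compared as log2(FPKM + 1), which understates changes of low genes. limma 3.58.1 (R 4.3.3), with a mean-variance trend and Benjamini-Hochberg adjustment over 10731 genes (mean of 1 FPKM or more), was fitted with a common exosome effect (5 libraries) or 1 mean per condition (6 libraries). The limit of 1 and −1 was applied to all 20950 entries. Depth was estimated from low values within 0.1 of a whole read, assuming fragments of 200 bases. All members were named, with the 3 highest and 3 lowest expressed genes of the wider list in 0.2% FBS, any past the limit, and the 3 genes most alike to a member spanning at least 1. Members, lists and motifs were chosen with earlier results of these data known. Alternatives were other pseudocounts, scaling, filters, no trend and leaving out a replicate.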

Additional observations from a re-analysis of the deposited data

How the results depend on the processing

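The 10 member genes kept their side of the limit of 1 and of the limma threshold in most settings, with the exceptions given below. The counts that come next also take in the genes named from the wider list. For differences they measure movement against the SD of the replicates, not the crossing of a threshold. Among the 344 unchanged differences are all those under the restriction to genes averaging 1 FPKM or more. That setting cannot change the value of a single gene, so the 344 overstate how stable the differences were. Of 384 differences of named genes recomputed under an alternative, 344 stayed within the spread between the replicates and 40 moved, and of 240 limma values 227 kept their direction and call, 7 changed sign without being called, 4 lost and 2 gained a call. With no filter on low values, the limma fit within 0.2% FBS called 0 genes in place of 1344 and 0 members in place of 1, and the difference between media was called for 0 genes in place of 125, or for 45 without the trend; the cause was not tested. With a pseudocount of 0.1, 547 entries were above 1 and 506 below −1 with exosomes in 0.2% FBS, 196 and 151 in 2% HS, 435 and 298 in 2% HS against 10% FBS, 434 and 396 in 0.2% FBS against 10% FBS, and 189 and 122 in 0.2% FBS + exosome against 10% FBS. The last 3 comparisons had 198 and 56, 195 and 77, and 55 and 10 at a pseudocount of 1, and that in 2% HS had 39 and 33. With values below 1 FPKM raised to 1, 350 were above 1 with exosomes in 0.2% FBS, 70 were above and 54 below in 2% HS, 120 and 190 were below in 2% HS and 0.2% FBS against 10% FBS, and 94 were above and 48 below in 0.2% FBS + exosome against 10% FBS. Scaling gave 108 above 1 with exosomes in 0.2% FBS, and 17 below −1 in 0.2% FBS + exosome against 10% FBS. Leaving out 1 replicate gave 157 to 319 entries above 1 with exosomes in 0.2% FBS (319 without replicate 1) and 0 to 1 members past the limit (Gabarapl1 without replicate 1), and against 10% FBS 67 to 107 above (107 without replicate 1) and 9 to 26 below (26 without replicate 2). Leaving a replicate out of the fit with 1 mean per condition leaves no residual degrees of freedom, so that test was not run. The title numbers pair 1 control with 1 exosome library in each medium, and a limma fit of the common effect with the title number as replicate block, chosen after seeing the data, called 0 genes (296 at an unadjusted p under 0.05) and gave Gabarapl1 0.41, Map1lc3b 0.34 and Sqstm1 0.31, the same as without replicate 2, which is the only library numbered 3. Number and medium coincide in these pairs, so whether the numbers mark shared runs could not be checked, and within 0.2% FBS no block could be fitted. Each control is 1 library, and FPKM values without counts carry no counting interval.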

Other observations

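Lists of target genes of regulators known to act on autophagy genes were described by their counts and medians in the same libraries. Of 12 HIF targets without the members, 11 were expressed, and their median log2 difference with exosomes in 0.2% FBS was 0.17 as deposited and 0.02 after scaling, against 0.14 and −0.00076 over all expressed genes. It was 0.17 in replicate 1 and −0.08 in replicate 2, and 4 targets were above and 4 below the control in both, against 55.2% and 27.5% of all expressed genes (40.9% and 41.5% after scaling). In 2% HS the median was −0.19, against −0.04 over all expressed genes. In that medium, where Bnip3 was at −0.40, the glycolysis enzymes of the list did not share a direction, with Ldha at −0.71, Pgk1 at −0.37 and Hk2 at 0.68, and Vegfa, a growth factor for vessels, was at 0.74. These 4 targets were chosen after their values were seen. The 8 NRF2 targets, without Sqstm1, had a median of −0.04 in 0.2% FBS (−0.09 in replicate 1 and 0.18 in replicate 2), which was −0.18 after scaling. In 2% HS it was −0.03, and 0.005 after scaling.

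ATF4 targets respond to amino acid shortage. The list of 8 used here also held Atf4 itself, which is counted with them, and Vldlr was not expressed. Of the 7 expressed, 6 were below the control in both exosome libraries of 0.2% FBS, against 27.5% of all expressed genes, with a median of −0.93 (−0.57 in replicate 1 and −1.07 in replicate 2, and −1.049 after scaling), and 3 were past −1, against 1.16% of all entries. The exception was Ddit3, which was higher with exosomes in both media, at 0.71 in 0.2% FBS (1.03 in replicate 1 and 0.38 in replicate 2) and 0.83 in 2% HS. In 2% HS the median of the 7 was 1.13, against −0.04 over all expressed genes. Of these 7, 4 were past 1, where 0.344% of all entries were past 1 or −1. Each 2% HS value is 1 library against 1, and the difference of these lists between media was not tested.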
